A study of Arabidopsis thaliana with 12 samples.

Results

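The 10 genes described here are 9 genes of leaf starch breakdown and *GBSS1*, the starch synthase that makes amylose. They were chosen by name from the known pathway. The rule uses no measured value, but earlier results of these data were known when the genes were chosen. All 10 were among the 23071 genes counted and passed the filter on low counts. Their messenger RNA was measured by RNA sequencing in 12 libraries of whole *Arabidopsis thaliana* seedlings, 3 from each of 4 transgenic lines. All lines were in the mute-3 mutant background and carried a *MUTE* allele under the *MUTE* promoter, which is active in the stomatal lineage. MUTEPPP#3 (line 3) carried the protein changes H3P, E7P and R11P, MUTEv5#5 (line 5) and MUTEv5#2 (line 2) both carried R10W, and MUTE (line 1) carried the wild-type protein. MUTE is a transcription factor that commits stomatal lineage cells to form guard cells. Seedlings were 2 days post-germination, grew on 1% sucrose at 21 °C under 16 h of light and 8 h of dark at 70 µmol m-2 s-1, and were pooled by 50 for each biological replicate. The MUTEPPP allele and the wild-type allele were each represented by 1 line, so allele and line cannot be told apart. No source used here gives the hour of harvest.

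Leaves store starch in chloroplasts by day and break it down at night to feed the plant. Breakdown begins with phosphorylation of the granule surface by glucan dikinases, followed by removal of the phosphate by phosphatases and cutting of the chains by beta-amylases and debranching enzymes. Maltose then leaves the chloroplast and is processed in the cytosol. In Arabidopsis leaves, transcripts of many breakdown enzymes are known to peak late in the day while the *GBSS1* transcript peaks around dawn and is a known target of the morning clock factors CCA1 and LHY.

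Of the 10 promoter windows, 4 held the core of the evening element, a clock motif spelled AAATATCT, searched on both strands. It was present in 4 of 10 windows (40%), against 2 of 17 windows of other breakdown genes (11.8%), 3 of 19 of other synthesis genes (15.8%) and 5.39% of the 22506 windows of nuclear genes in the table. Each window runs from 250 bases before to 30 bases after the annotated start and was taken from the RefSeq genome (build TAIR10.1). The extension past the start was chosen after the sequences had been seen. In the 250 bases before the start alone, 2 of 10 members (20%) held it, as did 1 of 17 other breakdown genes (5.88%), 3 of 19 other synthesis genes (15.8%) and 4.8% of all windows. The 4 windows with the element are shown with that of *GBSS1*, which moved the other way across libraries. They are written 5′ to 3′ on the gene's own strand, with the evening element and the G-box (CACGTG) in capitals.
GWD1, chr1:3590899-3591178, minus strand: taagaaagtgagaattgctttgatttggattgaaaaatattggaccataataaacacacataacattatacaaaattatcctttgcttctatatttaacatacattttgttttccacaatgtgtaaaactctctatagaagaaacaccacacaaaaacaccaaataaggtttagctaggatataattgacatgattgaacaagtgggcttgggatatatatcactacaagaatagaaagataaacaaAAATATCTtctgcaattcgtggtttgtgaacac
PWD, chr5:9261229-9261508, plus strand: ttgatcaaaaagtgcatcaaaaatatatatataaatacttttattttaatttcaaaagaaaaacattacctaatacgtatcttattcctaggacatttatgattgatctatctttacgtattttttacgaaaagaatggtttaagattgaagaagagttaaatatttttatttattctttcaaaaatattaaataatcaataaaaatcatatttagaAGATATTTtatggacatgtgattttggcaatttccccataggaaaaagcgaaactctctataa
ISA3, chr4:5783659-5783938, plus strand: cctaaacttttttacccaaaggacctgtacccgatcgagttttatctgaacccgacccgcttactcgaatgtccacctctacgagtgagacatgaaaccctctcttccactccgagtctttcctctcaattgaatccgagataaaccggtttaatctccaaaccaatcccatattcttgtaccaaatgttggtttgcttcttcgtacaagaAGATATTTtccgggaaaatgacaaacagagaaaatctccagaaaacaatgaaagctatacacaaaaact
DPE1, chr5:25928850-25929129, minus strand: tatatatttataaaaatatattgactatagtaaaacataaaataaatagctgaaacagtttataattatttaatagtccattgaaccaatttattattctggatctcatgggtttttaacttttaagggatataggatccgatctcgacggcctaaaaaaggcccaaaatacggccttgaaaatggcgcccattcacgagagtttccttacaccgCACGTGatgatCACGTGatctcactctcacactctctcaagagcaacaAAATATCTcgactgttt
GBSS1, chr1:11923837-11924116, minus strand: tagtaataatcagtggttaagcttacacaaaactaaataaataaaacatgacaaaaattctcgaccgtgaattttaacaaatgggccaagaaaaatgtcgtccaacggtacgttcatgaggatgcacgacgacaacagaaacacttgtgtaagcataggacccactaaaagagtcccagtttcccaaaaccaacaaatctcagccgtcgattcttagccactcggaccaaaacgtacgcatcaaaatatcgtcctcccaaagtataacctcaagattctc
In *GWD1* the element spanned the start, from position -3 to 5, and in *DPE1* it lay at 14 to 21. In *PWD* (-33 to -26) and *ISA3* (-39 to -32) it was read on the opposite strand, so the capitals there are its reverse complement. *DPE1* also held a pair of G-boxes, at -35 to -30 and -24 to -19, and a G-box occurred in 7.85% of all windows. The CCA1-binding site AAAAATCT was found in *DPE2* alone among the members, at -57 to -50 on the opposite strand, and in 7.23% of all windows. None of these 3 motifs was in the *GBSS1* window. These letters do not overlap one another in any member, and the windows of *SEX4*, *DPE2* and *MEX1* also overlap a neighbouring gene.

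The counts behind each value were large. Library totals ran from 117868570 to 152600825, so that 1 count was worth at most 0.00915 CPM (counts per 1000000 counts of the library, scaled here by the trimmed mean of M-values). *MUTE* was at 6.93, 5.42 and 5.32 CPM in MUTEPPP#3, 24.5, 14.4 and 16.8 in MUTEv5#5, 12.9, 10.8 and 8.26 in MUTEv5#2, and 6.10, 5.00 and 4.85 in MUTE. These counts join the transgene and the mutant locus. Markers of photosynthetic, guard cell and root tissue were present in every library, and the seed storage gene *CRA1* was at 0.265 CPM or less. In whole seedlings, fewer cells of a type and less RNA per cell cannot be told apart. Per kilobase of exon, the median level over the 12 libraries was highest for *BAM3* (53.2 CPM per kb) and *DPE2* (45.5), followed by *GBSS1* (26.5), *GWD1* (23.4) and *BAM1* (22.3). It was 14.5 CPM per kb for *DPE1* and between 8.06 and 9.26 for *MEX1*, *PWD*, *SEX4* and *ISA3*.

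**Figure D1:**
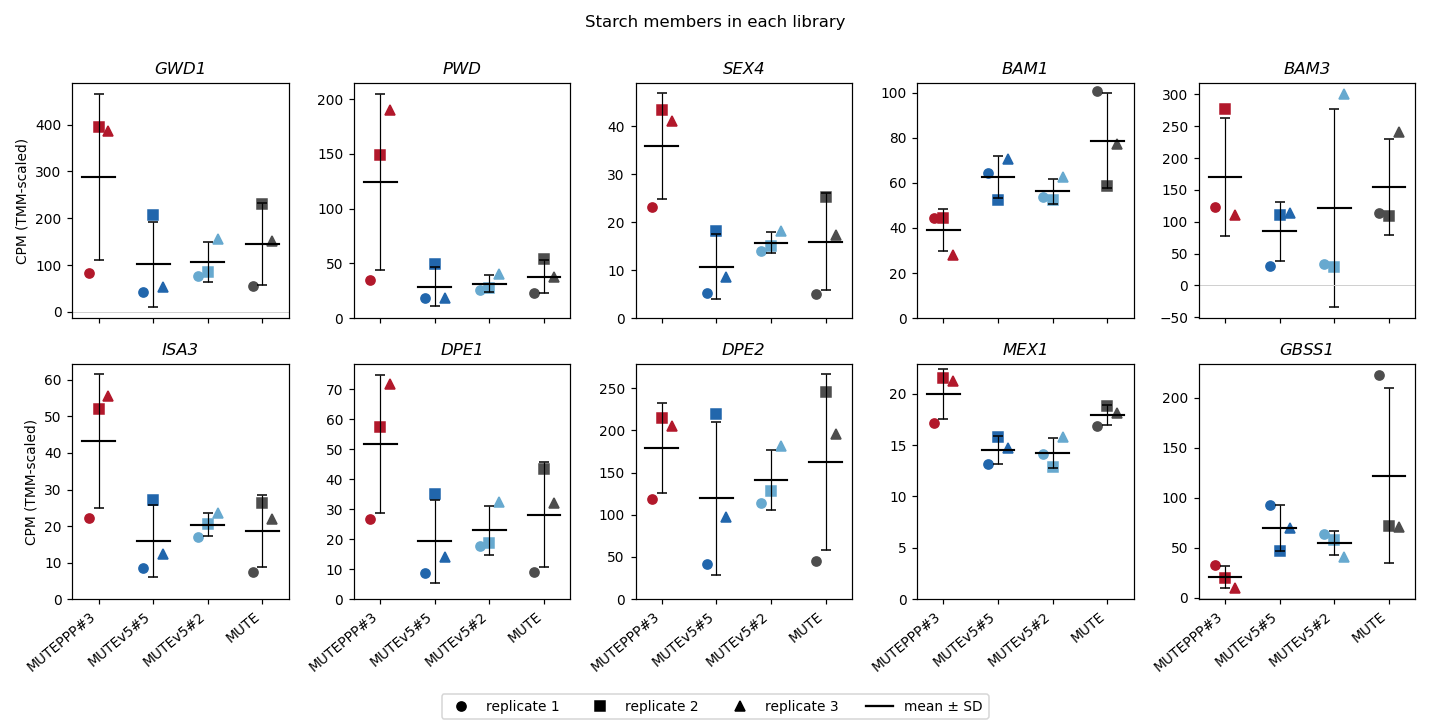
CPM of each of the 10 starch genes (vertical axis, linear) in every library of the 4 lines, with symbols for replicates, a bar for the mean of 3 libraries and whiskers for the SD. *GBSS1* and *BAM1* are lower in all MUTEPPP#3 libraries than in all MUTE libraries, while *GWD1*, *SEX4*, *ISA3*, *DPE1* and *DPE2* are low in replicate 1 of MUTEv5#5 and of MUTE.

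The 3 libraries of MUTEPPP#3 were lower in *GBSS1* and *BAM1* than those of MUTE, and these were the only members called in that comparison. *GBSS1* (AT1G32900, chromosome 1, 11920390 to 11923866, minus strand) is bound to the starch granule, where it extends amylose chains. It stood at 32.0, 19.5 and 9.54 CPM in MUTEPPP#3, against 223, 71.8 and 70.6 CPM in MUTE. Every MUTEPPP#3 library lay below every MUTE library, and MUTE replicate 1 stood far above its line. The log2 fold change was -2.58 (SE 0.534, 95% interval -3.76 to -1.40, adjusted p = 0.00711, edgeR quasi-likelihood test with Benjamini-Hochberg adjustment over all genes). Without MUTE replicate 1 it was -1.78 and was still called, as it was when any other library was left out. *BAM1* (AT3G23920, chromosome 3, 8641181 to 8644449, plus strand) is a chloroplast beta-amylase that frees maltose from chain ends and is best known from guard cells and stressed leaves. It had 44.2, 44.4 and 28.1 CPM in MUTEPPP#3, against 101, 58.5 and 77.2 CPM in MUTE, with no overlap. Its log2 fold change was -1.02 (SE 0.218, 95% interval -1.50 to -0.54, adjusted p = 0.00827), and it ran from -1.17 to -0.77 when single libraries were left out, called each time.

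Of all genes tested, 24.6% were called between MUTEPPP#3 and MUTE, 10.7% as higher and 13.9% as lower. Groups did not overlap for 40.7%, and for 21.5% with MUTEPPP#3 lower. The members' 2 of 10 calls, and 2 of 10 without overlap, are thus no more than that background. The remaining 8 members all had positive fold changes, and none was called. Their median, with *GBSS1* and *BAM1* included, was a log2 fold change of 0.52, against -0.0013 over all genes tested. With DESeq2, *PWD* (1.73, adjusted p = 0.0169) and *ISA3* (1.23, adjusted p = 0.0377) were called as well, both higher. The share of all genes that DESeq2 called in this comparison is not given here. DESeq2 gave no adjusted p for *BAM3* in any comparison, so its counts of members leave *BAM3* out. Scaled by library totals alone, which moved the median of all genes by 0.17, *PWD* (1.90) and *MEX1* (0.33) were called higher beside the 2 lower calls. That scaling called 4789 of all genes higher and 1862 lower. In edgeR with a replicate block, *PWD*, *SEX4* and *ISA3* were called higher (adjusted p of 0.0269, 0.0227 and 0.0152). Same-numbered libraries of these lines correlated at -0.086 to 0.21 in their deviations from line means, so they were not treated as paired.

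At the start of breakdown act 2 kinases and a phosphatase, and *PWD* had the widest difference of the 8. *PWD* (AT5G26570, chromosome 5, 9261479 to 9267732, plus strand) phosphorylates glucans that the other kinase has already phosphorylated. It had 34.7, 149 and 189.9 CPM in MUTEPPP#3, against 23.0, 53.6 and 37.2 CPM in MUTE. Replicate 1 of MUTEPPP#3 fell among the MUTE libraries, and the log2 fold change of 1.72 (SE 0.584, 95% interval 0.43 to 3.00) missed the threshold at an adjusted p of 0.0532. It was called without MUTEPPP#3 replicate 1 (2.16, adjusted p = 0.00955) and without MUTEv5#5 replicate 2 (1.74, adjusted p = 0.0374). *GWD1* (AT1G10760, chromosome 1, 3580830 to 3590928, minus strand) is the dikinase that opens the granule surface to attack. It had 84.1, 395 and 387 CPM in MUTEPPP#3, against 54.8, 229.7 and 151 CPM in MUTE. The groups overlapped through MUTEPPP#3 replicate 1, and the log2 fold change was 0.99 (95% interval -0.61 to 2.60, adjusted p = 0.343). For both kinases replicate 1 was also the lowest library of MUTE. *SEX4* (AT3G52180, chromosome 3, 19349600 to 19353728, minus strand) removes the phosphate again so that amylases can proceed. It had 23.2, 43.3 and 41.0 CPM in MUTEPPP#3, against 5.11, 25.2 and 17.4 CPM in MUTE, a log2 fold change of 1.17 (95% interval -0.019 to 2.36, adjusted p = 0.136).

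Among the enzymes that cut and rearrange chains other than *BAM1*, differences between MUTEPPP#3 and MUTE were of the size of the spread within lines. *ISA3* (AT4G09020, chromosome 4, 5783909 to 5789100, plus strand), a debranching enzyme, had 22.3, 52.0 and 55.6 CPM in MUTEPPP#3, against 7.48, 26.4 and 22.0 CPM in MUTE. The groups overlapped through MUTEPPP#3 replicate 1, and the log2 fold change of 1.22 was not called (95% interval 0.072 to 2.36, adjusted p = 0.110). Here too replicate 1 was the lowest library of MUTE. *DPE1* (AT5G64860, chromosome 5, 25925173 to 25928879, minus strand), the chloroplast disproportionating enzyme that recycles short chains, had 26.6, 57.4 and 71.6 CPM in MUTEPPP#3, against 9.01, 43.4 and 32.2 CPM in MUTE. Its log2 fold change was 0.88 (95% interval -0.47 to 2.23, adjusted p = 0.317). *BAM3* (AT4G17090, chromosome 4, 9604962 to 9607402, minus strand), the main beta-amylase of leaves at night, had 123, 277 and 110.1 CPM in MUTEPPP#3, against 114, 109 and 241 CPM in MUTE. A single library of each line was high, and the log2 fold change was 0.14 (95% interval -1.71 to 1.98, adjusted p = 0.924). *BAM3* overlaps genes on the other strand, and the strand setting of the counting is given in no source used here.

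The last steps concern maltose. *MEX1* (AT5G17520, chromosome 5, 5772568 to 5775417, minus strand), the maltose exporter of the chloroplast envelope, had 17.2, 21.5 and 21.2 CPM in MUTEPPP#3, against 16.9, 18.8 and 18.1 CPM in MUTE, with a log2 fold change of 0.16 (95% interval -0.096 to 0.41, adjusted p = 0.343). *DPE2* (AT2G40840, chromosome 2, 17044932 to 17051062, plus strand), the cytosolic enzyme that acts on exported maltose, had 118, 215 and 205 CPM in MUTEPPP#3, against 44.9, 245 and 196 CPM in MUTE. Here MUTE held both the lowest and the highest of these 6 libraries, and the log2 fold change was 0.15 (95% interval -1.22 to 1.51, adjusted p = 0.887).

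**Figure D2:**
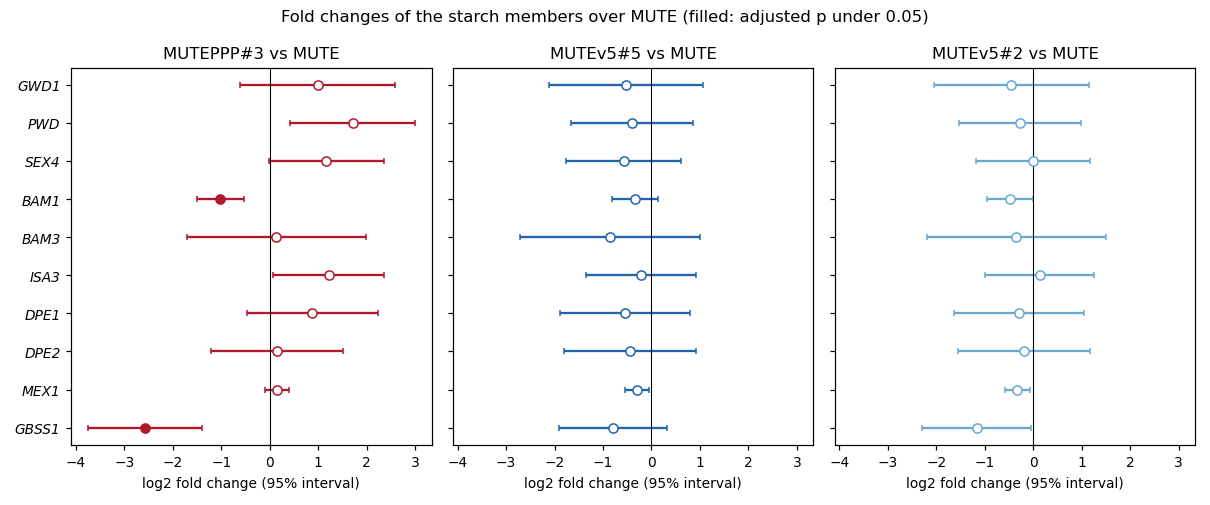
Log2 fold change of each starch gene over MUTE (horizontal axis) in MUTEPPP#3, MUTEv5#5 and MUTEv5#2, with 95% intervals; filled points passed the adjusted p of 0.05. The filled points are *BAM1* (-1.02) and *GBSS1* (-2.58) in MUTEPPP#3, and all 10 estimates for MUTEv5#5 lie below 0 with open points.

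Neither MUTEv5 line had a called member against MUTE. In MUTEv5#5, 0 of 10 were called by edgeR, with 1.04% of all genes called, 0.725% as lower. By edgeR's unadjusted p, 1 member and 3673 of the 22636 genes tested were under 0.05. DESeq2 called 0 members and 1156 of all genes. All 10 members had negative log2 fold changes, from -0.86 for *BAM3* to -0.22 for *ISA3*, with a median of -0.48 against -0.0059 over all genes. *MEX1* was the single member whose groups did not overlap, where 20.6% of all genes did not (10.5% with MUTEv5#5 lower). It had 13.1, 15.7 and 14.8 CPM in MUTEv5#5, against 16.9, 18.8 and 18.1 CPM in MUTE (log2 fold change -0.30, 95% interval -0.56 to -0.049, adjusted p = 0.225). *GBSS1* had 92.9, 46.8 and 69.9 CPM in MUTEv5#5, and its log2 fold change was -0.80 (adjusted p = 0.480) with MUTE replicate 1 and -0.027 without it. The fit without it kept MUTEv5#5 replicate 1, although libraries of these lines varied together by replicate number. A fit with a replicate block called no member either. Taken by number, *GWD1*, *PWD*, *BAM1*, *DPE1*, *DPE2*, *MEX1* and *GBSS1* were lower in MUTEv5#5 in every pair. *SEX4*, *BAM3* and *ISA3* were not. The share of all genes with this pattern was not computed.

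In MUTEv5#2 against MUTE, 0 of 10 members were called by edgeR, with 5.04% of all genes called, 3.55% as lower. By edgeR's unadjusted p, 3 members and 5163 of the 22636 genes tested were under 0.05. DESeq2 called 0 members and 2661 of all genes. *MEX1* and *GBSS1* were lower in every MUTEv5#2 library than in any MUTE library, where 30.3% of all genes had no overlap (16.1% with MUTEv5#2 lower). *GBSS1* had 63.7, 57.8 and 40.8 CPM in MUTEv5#2, against 223, 71.8 and 70.6 CPM in MUTE. Its log2 fold change was -1.17 (95% interval -2.29 to -0.046, adjusted p = 0.201) and was -0.39 without MUTE replicate 1. *MEX1* had 14.1, 12.9 and 15.8 CPM in MUTEv5#2 and the values above in MUTE, a log2 fold change of -0.33 (95% interval -0.58 to -0.075, adjusted p = 0.119). The median over the 10 members was -0.31, against -0.00038 over all genes tested.

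Between the MUTEv5 lines, which carry the same allele, 0 of 10 members were called by edgeR, with 0.0663% of all genes called. By edgeR's unadjusted p, 0 members and 2455 of the 22636 genes tested were under 0.05. DESeq2 called 290 of all genes and 0 members. All 10 overlapped, where 18.2% of all genes did not. Their log2 fold changes, MUTEv5#5 over MUTEv5#2, ran from -0.56 for *SEX4* to 0.37 for *GBSS1*. The widest 95% interval was that of *BAM3*, from -2.36 to 1.34, so that sizeable differences were not detectable with 3 libraries a line.

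Set against MUTEv5#5, MUTEPPP#3 was higher in *PWD* and *MEX1* and lower in *GBSS1*. These 3 of 10 calls stood beside 15.7% of all genes called, 6.32% as higher and 9.38% as lower, and 33.3% without overlap. *PWD* had 34.7, 149 and 189.9 CPM in MUTEPPP#3, against 18.3, 49.4 and 18.7 CPM in MUTEv5#5, and replicate 1 of MUTEPPP#3 lay below replicate 2 of MUTEv5#5. Its log2 fold change was 2.11 (SE 0.592, adjusted p = 0.0366). *MEX1* had 17.2, 21.5 and 21.2 CPM in MUTEPPP#3, against 13.1, 15.7 and 14.8 CPM in MUTEv5#5, with no overlap (log2 fold change 0.46, SE 0.115, adjusted p = 0.0245). *GBSS1* had 32.0, 19.5 and 9.54 CPM in MUTEPPP#3, against 92.9, 46.8 and 69.9 CPM in MUTEv5#5, again with no overlap (-1.78, SE 0.519, adjusted p = 0.0419). *SEX4* (1.75, adjusted p = 0.0538) and *BAM1* (-0.68, adjusted p = 0.0558) also had no overlap and were not called. A fit of these lines alone called 0 members. The count was also 0 without MUTEv5#5 replicate 1 or 3 or MUTEPPP#3 replicate 2 or 3, and 1 without MUTEv5#2 replicate 1 or 2. It was 6 without MUTE replicate 1 and 5 without MUTE replicate 2 or MUTEPPP#3 replicate 1.

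Set against MUTEv5#2, MUTEPPP#3 had 0 of 10 members called by edgeR, with 2.47% of all genes called. By edgeR's unadjusted p, 4 members and 4801 of the 22636 genes tested were under 0.05. DESeq2 called 2 members, *PWD* and *MEX1*, and 2110 of all genes. *SEX4* and *MEX1* were higher and *BAM1* and *GBSS1* lower with no overlap, 4 of 10 members against 27.2% of all genes. *MEX1* came closest to the threshold (log2 fold change 0.49, adjusted p = 0.0544), ahead of *PWD* (1.99, adjusted p = 0.0929) and *GBSS1* (-1.41, adjusted p = 0.150). *PWD* had 26.1, 27.7 and 40.1 CPM in MUTEv5#2, and replicate 1 of MUTEPPP#3, at 34.7 CPM, lay inside that range. Without MUTEPPP#3 replicate 1, *PWD* (2.44, adjusted p = 0.0153) and *MEX1* (0.58, adjusted p = 0.0146) were called, and without MUTE replicate 1 *MEX1* was (0.51, adjusted p = 0.0431). The comparisons of MUTEPPP#3 with the other lines share its 3 libraries.

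In order of mean CPM, 7 of the 10 members were highest in MUTEPPP#3 and lowest in MUTEv5#5. *GWD1*, for example, averaged 289 ± 177 CPM in MUTEPPP#3, 101 ± 91.7 in MUTEv5#5, 106 ± 42.8 in MUTEv5#2 and 145 ± 87.6 in MUTE (SD, n = 3 each). *MEX1* was lowest in MUTEv5#2. *BAM1* and *GBSS1* had a different order, with MUTEPPP#3 lowest and MUTE highest. *GBSS1* averaged 20.4 ± 11.3 CPM in MUTEPPP#3, 69.9 ± 23.0 in MUTEv5#5, 54.1 ± 11.9 in MUTEv5#2 and 122 ± 87.5 in MUTE (SD, n = 3 each). None of the 30 comparisons between neighbouring lines in these orders passed the edgeR threshold.

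Within a line, most members varied as much as between lines. *DPE2* differed 5.47-fold among the 3 MUTE libraries and 5.28-fold among the MUTEv5#5 libraries, where the highest and lowest line means differed 1.50-fold. *BAM3* differed 10.6-fold within MUTEv5#2, at 34.3, 28.5 and 301 CPM. The coefficient of variation within lines was 78.8% for *BAM3* and 65.7% for *GWD1*, against 20.1% for *BAM1* and 9.60% for *MEX1*, the steadiest member. *GBSS1* had the widest range over all libraries, 23.4-fold, from 9.54 CPM in MUTEPPP#3 replicate 3 to 223 CPM in MUTE replicate 1.

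Of the 9 breakdown genes 6 varied together, a set picked by hand, so its correlations describe it and do not test it. *GWD1*, *PWD*, *SEX4*, *ISA3*, *DPE1* and *DPE2* were all lowest in replicate 1 of every line, and *GBSS1* was highest there. Over the 12 libraries the 15 pairs among these 6 genes had Pearson r of 0.691 to 0.981 and Spearman rho of 0.846 to 0.993 on log2(CPM + 0.5). Their permutation p-values, adjusted over all 45 pairs of members, were 5.62e-05 to 0.0219 for r and 9e-05 to 0.00261 for rho. All 12 libraries were shuffled freely, so the permutation p-values of this paragraph do not allow for line or replicate number. Without the 2 libraries farthest from the median of the first gene of a pair r was 0.679 to 0.987, and from deviations within lines 0.731 to 0.985. *MEX1* varied with these 6 as well, with r of 0.555 to 0.84 (adjusted permutation p 0.00147 to 0.0794). Its rho was 0.608 to 0.762 (adjusted permutation p 0.0136 to 0.0612). Its r with them was 0.358 to 0.638 without the 2 farthest libraries and 0.72 to 0.87 within lines. *GBSS1* ran against all 6, with r of -0.893 to -0.641 (adjusted p 0.000519 to 0.0348) and rho of -0.769 to -0.455 (adjusted p 0.0135 to 0.187). Its r was -0.799 to -0.460 without the 2 farthest libraries and -0.931 to -0.832 within lines. *BAM1*, although a breakdown enzyme, had an r of -0.799 to -0.517 with these 6 (adjusted p 0.00454 to 0.105) and varied with *GBSS1* (r = 0.927, adjusted p = 0.000519, rho = 0.846, adjusted p = 0.00262). That r was 0.737 without the 2 farthest libraries and 0.761 within lines. *BAM3* had no relation past the threshold with any of the 6, with r of 0.432 to 0.551 (adjusted permutation p 0.0831 to 0.174) and rho of 0.196 to 0.315 (adjusted p 0.376 to 0.557). *BAM3* and *GBSS1* had an r of -0.290 (adjusted p = 0.374) and a rho of -0.308 (adjusted p = 0.376) by the permutation test.

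**Figure D3:**
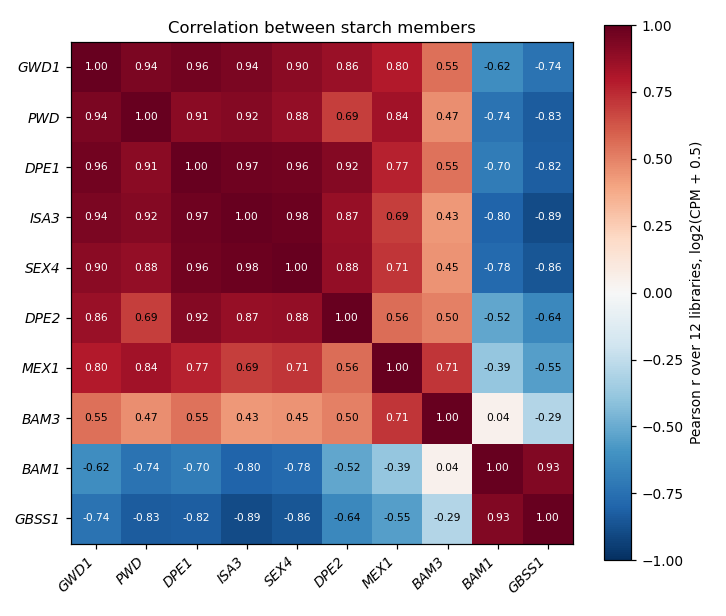
Pearson r between each pair of starch genes over the 12 libraries on log2(CPM + 0.5), from blue (negative) to red (positive). *GWD1*, *PWD*, *DPE1*, *ISA3*, *SEX4* and *DPE2* form a red block with r of 0.691 to 0.981, and *BAM1* and *GBSS1* are red with each other (0.927) and blue with that block. *MEX1* is also red with that block, with r of 0.555 to 0.84.

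The libraries also differed in the clock genes, measured beside the members. The clock index is the mean centred log2(CPM + 0.5) of 8 evening genes minus that of 8 morning genes. It was 0.80, 3.62 and 4.67 in MUTEPPP#3, -2.19, -0.17 and -1.64 in MUTEv5#5, -0.83, -0.57 and 0.18 in MUTEv5#2, and -2.71, -0.39 and -0.76 in MUTE. All MUTEPPP#3 libraries lay above all others, and replicate 1 was the lowest of each line. *CCA1*, a morning clock factor, had 26.6, 8.32 and 5.01 CPM in MUTEPPP#3, against 297, 69.8 and 97.8 CPM in MUTE (log2 fold change -3.54, adjusted p = 0.00674). *TOC1*, an evening clock factor, had 33.6, 86.1 and 156 CPM in MUTEPPP#3, against 20.7, 37.6 and 39.8 CPM in MUTE (1.49, adjusted p = 0.0467). *LHY* (-3.85, adjusted p = 0.0537) and *GI* (0.83, adjusted p = 0.414) were not called. Of the 8 morning genes 5 were called lower and of the 8 evening genes 5 were called higher in MUTEPPP#3 than in MUTE.

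Most members followed this index from library to library. The permutations shuffled all 12 libraries freely, without regard to line or replicate number, so their p-values do not allow for either. The r within lines carries no p-value. Over 12 libraries *GBSS1* had a Pearson r of -0.955 with the index (permutation p = 1e-05, the smallest that 100000 resamples can give; adjusted p = 0.0001 over 10 relations) and a Spearman rho of -0.909 (p = 9e-05, adjusted p = 0.0003). Its r was -0.917 without the 2 libraries farthest from the median index, MUTEPPP#3 replicates 2 and 3, and -0.932 within lines. *PWD* had an r of 0.943 (permutation p = 7e-05, adjusted p = 0.000233) and a rho of 0.867 (p = 0.00064, adjusted p = 0.00128), with 0.725 without those libraries and 0.971 within lines. *ISA3* had an r of 0.928 (permutation p = 4e-05, adjusted p = 0.0002) and a rho of 0.930 (p = 3e-05, adjusted p = 0.0003), with 0.906 without those libraries. For *SEX4*, *DPE1*, *GWD1* and *DPE2* r was 0.898, 0.868, 0.838 and 0.644, with adjusted permutation p of 0.0003, 0.00025, 0.000371 and 0.0249. Their rho was 0.937, 0.881, 0.832 and 0.706, with adjusted permutation p of 0.0003, 0.00095, 0.00199 and 0.0166. Without the 2 farthest libraries their r was 0.929, 0.833, 0.659 and 0.773. *BAM1* had an r of -0.870 (adjusted permutation p = 0.00026) and a rho of -0.825 (adjusted p = 0.00199), with -0.781 without those libraries. *MEX1* had an r of 0.725 (adjusted permutation p = 0.00784) and a rho of 0.608 (adjusted p = 0.0443), and its r was 0.280 without MUTEPPP#3 replicates 2 and 3 and 0.848 within lines. The pooled relation rests on those 2 libraries. *BAM3* alone of the 10 had no relation past the threshold (r = 0.381, permutation p = 0.218, rho = 0.343, p = 0.275).

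**Figure D4:**
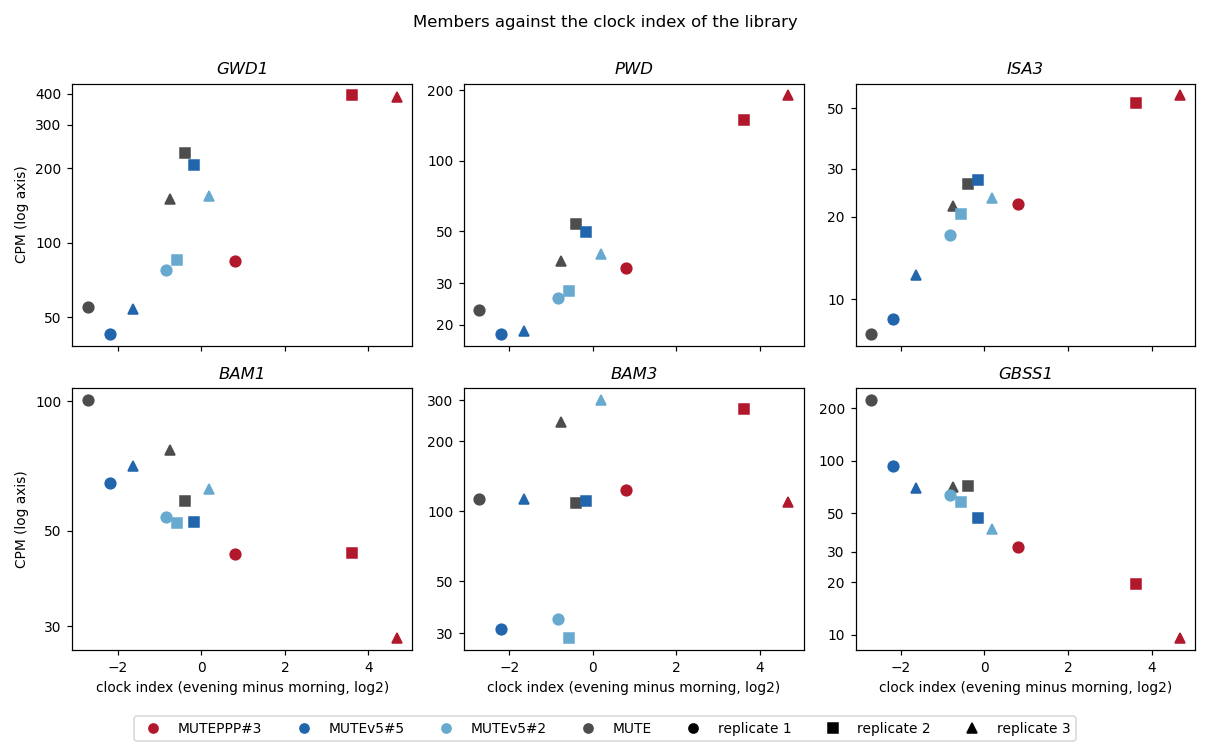
CPM of 6 starch genes (vertical axis, log scale) against the clock index of the library (horizontal axis, log2 units), with colours for lines and symbols for replicates. *GBSS1* runs from 223 CPM at an index of -2.71 to 9.54 CPM at 4.67, *GWD1*, *PWD* and *ISA3* run the other way, and *BAM3* is scattered.

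With the clock index as a term in the fit, the differences between MUTEPPP#3 and MUTE were unlike those above. *GBSS1* was then at a log2 fold change of -0.31 (adjusted p = 0.632) and *BAM1* at -0.33 (adjusted p = 0.526), and neither was called. The estimates of *GWD1* (-2.43, adjusted p = 0.0145) and *PWD* (-1.25) became negative and were called as lower. Over all genes 1920 were called there, 1339 of them as lower. In MUTEv5#2 against MUTE the same term gave calls for *GWD1* (-0.99, adjusted p = 0.0420), *PWD* (-0.79, adjusted p = 0.0202) and *MEX1* (-0.41, adjusted p = 0.0184), all lower. Of the 22636 genes tested, 2289 were called in that fit, 1487 of them as lower. Since the index of all MUTEPPP#3 libraries lay outside the range of the other lines, line and index cannot be told apart in these data.

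Each of the 5 genes most like *GBSS1* over the 12 libraries had an r of 0.984 or more. They were AT5G64940 (*ATH13*, 0.991), AT4G34000 (*ABF3*, 0.990, an abscisic acid response factor), AT5G23060 (*CaS*, 0.989, the chloroplast calcium sensor), AT2G37240 (0.984) and AT4G31390 (*ACDO1*, 0.984). Most like the mean of the 9 breakdown genes were AT3G26580 (0.974), AT1G20030 (0.973), AT4G27440 (*PORB*, 0.971, a chlorophyll synthesis enzyme), AT1G76140 (0.971) and AT1G22770 (*GI*, 0.970, an evening clock gene). These values describe the libraries and share their line differences.

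Around the members, the largest changes in MUTEPPP#3 against MUTE were in *BAM9* and *LESV*. Of 17 other breakdown genes 1 rose and 6 fell (median log2 fold change -0.26), and of 19 other synthesis genes 0 rose and 3 fell (median -0.11), where 24.6% of all genes were called. The breakdown list is broad and takes in the granule proteins *LESV* and *ESV1*, so its counts are not those of breakdown enzymes alone. *BAM9*, a beta-amylase relative without known catalytic activity, had 9.03, 6.21 and 7.07 CPM in MUTEPPP#3, against 115, 39.1 and 47.3 CPM in MUTE, with no overlap (log2 fold change -3.17, SE 0.390, adjusted p = 0.000794). *LESV*, a protein that helps glucans pack into granules, had 31.7, 60.7 and 20.8 CPM in MUTEPPP#3, against 7.18, 17.5 and 15.4 CPM in MUTE (1.50, SE 0.467, adjusted p = 0.0390). The fall of the starch synthase *SS3* was -0.82 (adjusted p = 0.000718), and that of *SS2* was -0.79 (adjusted p = 0.00721). The others were *GWD2*, a dikinase outside the chloroplast (-0.67), *BAM2*, a chloroplast beta-amylase (-0.58), *BAM7*, a nuclear beta-amylase relative (-0.29), *pGlcT*, a chloroplast glucose exporter (-0.29), *ESV1*, a granule protein (-0.44), and *APL1*, the main large subunit of leaf ADP-glucose pyrophosphorylase (-0.52). Their adjusted p-values ran up to 0.0384. Like *BAM3*, the genes *BAM9*, *SS2*, *SS3*, *BAM2*, *pGlcT* and *APL1* overlap genes on the other strand. *APL4* and *SLAC1*, named below, do too. *AMY3*, *PHS1* and *PHS2*, an alpha-amylase and a pair of phosphorylases, were not called (log2 fold changes 0.62, 0.33 and 1.27) and had replicate 1 lowest in MUTEPPP#3, MUTEv5#5 and MUTE.

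**Figure D5:**
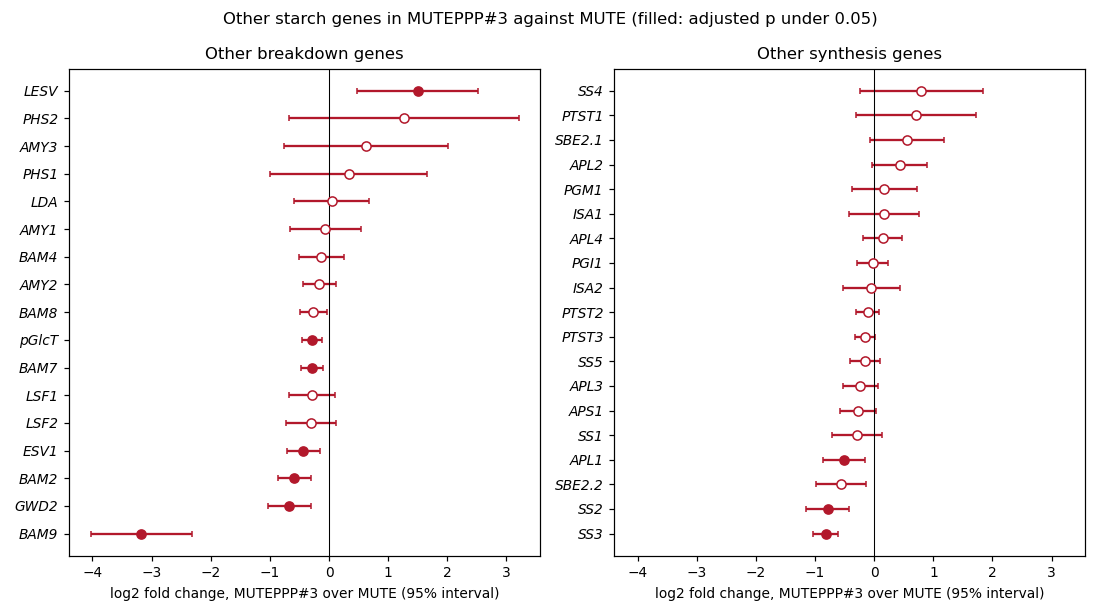
Log2 fold change of MUTEPPP#3 over MUTE (horizontal axis) with 95% intervals for 17 other breakdown genes and 19 other synthesis genes; filled points passed the adjusted p of 0.05. *LESV* (1.50) is the filled point above 0, and *BAM9* (-3.17) is the farthest below.

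In the remaining comparisons fewer of these 36 genes were called. In MUTEv5#5 against MUTE the single call was *APL4*, another large subunit (-0.93, adjusted p = 0.0211). In MUTEv5#2 against MUTE *BAM9* (-1.99, adjusted p = 0.0221), *pGlcT* (-0.30, adjusted p = 0.0490) and *SS3* (-0.56, adjusted p = 0.0189) fell. In MUTEPPP#3 against MUTEv5#5 *LESV* (1.99), *APL2* (0.71) and *APL4* (1.07) rose and *BAM9* (-2.86), *SS2* (-0.82) and *SS3* (-0.37) fell. In MUTEPPP#3 against MUTEv5#2 edgeR called 0 of the 36. By its unadjusted p, 8 of them and 4801 of the 22636 genes tested were under 0.05. DESeq2 called 4 of them and 2110 of all genes. *SS2* (-0.68, adjusted p = 0.0561) and *APL4* (0.60, adjusted p = 0.0624) had the smallest p in edgeR. Between MUTEv5#5 and MUTEv5#2 edgeR called 0 of the 36. By its unadjusted p, 3 of them and 2455 of the 22636 genes tested were under 0.05. DESeq2 called 1 of them and 290 of all genes. *BAM9* (1.68, adjusted p = 0.179) and *APL4* (-0.48, adjusted p = 0.311) came first in edgeR.

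Tissue markers moved beside these results in part. The summed level of 3 guard cell markers was 963 to 1084 CPM in MUTEPPP#3, 322 to 494 in MUTEv5#5, 462 to 532 in MUTEv5#2 and 1131 to 1294 in MUTE. That sum is nearly all *TGG1*, a myrosinase, at 936 to 1057 CPM in MUTEPPP#3, against 1109 to 1268 CPM in MUTE (log2 fold change -0.30, adjusted p = 0.149). *SLAC1*, the guard cell anion channel, was called higher, at 3.68 to 3.95 CPM in MUTEPPP#3, against 2.42 to 2.99 CPM in MUTE (0.50, adjusted p = 0.0281). *FAMA*, a guard cell transcription factor, was at 21.9 to 23.9 CPM in MUTEPPP#3, against 18.9 to 23.0 CPM in MUTE (0.14, adjusted p = 0.461). All 3 were called lower in both MUTEv5#5 and MUTEv5#2 than in MUTE. The summed level of 3 photosynthetic markers was 27296 to 30303 CPM in MUTEPPP#3, 29820 to 32411 in MUTEv5#5, 25808 to 29827 in MUTEv5#2 and 33587 to 35107 in MUTE. The share of organelle and ribosomal RNA was 0.533 to 1.98% in MUTEPPP#3, 1.03 to 1.41% in MUTEv5#5, 1.03 to 2.73% in MUTEv5#2 and 0.365 to 1.19% in MUTE. Their part in the starch results was not tested.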

How the data were processed

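Seedling RNA was sequenced from a TruSeq stranded mRNA library per replicate. The deposited file holds raw counts as whole numbers for each gene. Per the submitters' processing notes, the authors used the build TAIR10, the aligners Bowtie2 2.3.4.1 and HISAT2 2.1.0, Trimmomatic 0.38 with FastQC, and StringTie 2.1.3b and DESeq2, with no strand setting given. Of 23098 entries, 27 named no gene (at most 0.000596% of counts). These entries were dropped. The lowest value was 1, and 80 entries were at 1 in every library. Either genes without reads in a library are absent, or 1 was added throughout. Which of these was done is not given.

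Counts were tested with edgeR 4.0.16 in R 4.3.3: quasi-likelihood F test, TMM scaling, filterByExpr (22636 genes tested, 435 left out), 12 libraries in a fit of 4 line means, two-sided, Benjamini-Hochberg over all genes tested, threshold 0.05. Fold changes are named for the first line over the second. Replicates are separate biological samples per the labels. Replicate numbers were taken to pair the libraries of MUTEv5#5 and MUTE alone, since every pair had to exceed a correlation of deviations of 0.1. There it was 0.45 to 0.66, with 6 of 6 libraries closest to their own number. Genes were named by rule: all 10 members, the other starch genes called (or the 2 with the smallest p), *CCA1*, *LHY*, *TOC1*, *GI*, *MUTE*, and the 5 genes most like the members. Members and lists were chosen with earlier results of these data known. The edgeR fit was tested on simulated data. The alternatives were DESeq2 1.42.0, other scalings, no filter, only the compared lines, a replicate block, the clock index and leaving out each library. The pathway lists held 19 other breakdown genes, of which *BAM5* and *BAM6* were not in the table used here, and 19 other synthesis genes.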

Additional observations from a re-analysis of the deposited data

How the results depend on the processing

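The lower *GBSS1* and *BAM1* of MUTEPPP#3 against MUTE kept their direction under every alternative run and were called under all but the clock index as a covariate (-0.31 and -0.33); why other results moved was not tested. RLE scaling and no filter on low counts changed no call of a member. Counting error is small at this depth, and the spread among 3 libraries a line sets the limit.

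In the counts below, the count of the fit reported above follows in parentheses. DESeq2, which gave no adjusted p for *BAM3*, called 4 members (2) in MUTEPPP#3 against MUTE and 6 (3) against MUTEv5#5. Its counts of all genes in those comparisons are not given here, so these member counts have no background beside them. Against MUTEv5#2 it called 2 members (0), 4 other starch genes (0) and 2110 of all genes (558). For MUTEv5#5 against MUTE it called 5 other starch genes (1) and 1156 of all genes (235), for MUTEv5#2 against MUTE 5 (3) and 2661 (1140), and for MUTEv5#5 against MUTEv5#2 1 (0) and 290 (15). Scaled by library totals alone, 4 members (2) were called in MUTEPPP#3 against MUTE. Against MUTEv5#2 this scaling called 1 member (0), 1 other starch gene (0) and 396 of all genes (558). In MUTEv5#5 against MUTE it called 129 of all genes (235). *SEX4* then turned to 0.11 in MUTEv5#2 against MUTE and *MEX1* to -0.016 in MUTEv5#5 against MUTEv5#2. That scaling moved the median of all genes by 0.17 in MUTEPPP#3, 0.084 in MUTEv5#5 and 0.13 in MUTEv5#2 over MUTE. It called 4789 of all genes higher and 1862 lower in MUTEPPP#3 against MUTE (2428 and 3149), 63 and 66 in MUTEv5#5 (71 and 164) and 1001 and 400 in MUTEv5#2 (336 and 804). Against MUTEv5#5 it called 2004 higher and 1445 lower in MUTEPPP#3 (1430 and 2123).

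A fit of the 2 compared lines alone called 6 other starch genes (10) and 3231 of all genes (5577) in MUTEPPP#3 against MUTE, 0 members (3) and 1894 of all genes (3553) against MUTEv5#5 and 129 of all genes (558) against MUTEv5#2. It called 0 other starch genes (1) and 42 of all genes (235) in MUTEv5#5 against MUTE, and 0 (3) and 171 (1140) in MUTEv5#2.

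Same-numbered libraries of MUTEv5#5 and MUTE deviated together from their line means, and the block changed no call of a member there. In the other comparisons not every correlation was over 0.1, the cutoff set here, so those libraries were not treated as paired. This does not exclude a weaker sharing by replicate number. The correlation was -0.086 to 0.21 between MUTEPPP#3 and MUTE, where 2 of 6 libraries correlated best with their own number. It was 0.064 to 0.62 between MUTEv5#2 and MUTE, where 5 of 6 did. The lowest was -0.24, between MUTEPPP#3 and MUTEv5#5. A replicate block gave 5 called members (2) in MUTEPPP#3 against MUTE, adding *PWD* (1.59, adjusted p = 0.0269), *SEX4* (1.34, adjusted p = 0.0227) and *ISA3* (1.28, adjusted p = 0.0152) as higher, 6 (3) against MUTEv5#5 and 2 (0) against MUTEv5#2, with 1 other starch gene (0) there. The counts of all genes called with the block are not given here, so these member counts have no background beside them. With the block, *SEX4* (0.26) and *DPE2* (0.13) turned positive in MUTEv5#2 against MUTE.

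With the clock index as a covariate, 1920 of all genes (5577) were called in MUTEPPP#3 against MUTE, and 0 members (3), 0 other starch genes (6) and 280 of all genes (3553) against MUTEv5#5. It called 15 of all genes (558) against MUTEv5#2, 6 other starch genes (1) and 563 of all genes (235) in MUTEv5#5 against MUTE, and 3 members (0), 13 other starch genes (3) and 2289 of all genes (1140) in MUTEv5#2 against MUTE. In MUTEPPP#3 against MUTE, *GWD1* (-2.43), *PWD* (-1.25), *SEX4* (-0.72), *BAM3* (-1.36), *ISA3* (-0.98), *DPE1* (-1.59), *DPE2* (-1.93) and *MEX1* (-0.24) turned negative. So did *GWD1* (-1.84), *PWD* (-0.80), *SEX4* (-0.22), *BAM3* (-0.46), *ISA3* (-0.79), *DPE1* (-1.09) and *DPE2* (-1.53) against MUTEv5#5, and -1.44, -0.46, -0.47, -0.55, -0.80, -0.93 and -1.46 for the same 7 genes against MUTEv5#2. *GBSS1* turned positive against MUTEv5#5 (0.37) and MUTEv5#2 (0.24). *ISA3* was at -0.18 in MUTEv5#2 against MUTE. In MUTEv5#5 against MUTEv5#2, *GWD1* (0.40), *PWD* (0.34), *DPE1* (0.16), *DPE2* (0.072), *BAM1* (-0.0087) and *GBSS1* (-0.13) changed sign.

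Leaving out single libraries gave 2 to 3 called members in MUTEPPP#3 against MUTE, 0 to 6 against MUTEv5#5 and 0 to 2 against MUTEv5#2, and 0 in each comparison among the other lines. The other starch genes called were 4 to 11, 2 to 9 and 0 to 3 in those comparisons of MUTEPPP#3, 0 to 2 in MUTEv5#5 against MUTE, 0 to 3 in MUTEv5#2 against MUTE and 0 to 1 in MUTEv5#5 against MUTEv5#2. Over all genes the counts were 2995 to 5666, 1061 to 4423 and 40 to 1904 for MUTEPPP#3, 59 to 274 for MUTEv5#5 and 78 to 1399 for MUTEv5#2 against MUTE, and 3 to 35 between the MUTEv5 lines. Fold changes that crossed 0 were those of *BAM3* (-0.41 to 0.63) and *DPE2* (-0.27 to 0.60) in MUTEPPP#3 against MUTE, *BAM3* against MUTEv5#2 (-0.055 to 2.44) and *ISA3* in MUTEv5#5 against MUTE (-0.85 to 0.12). In MUTEv5#2 against MUTE they were *GWD1* (-0.84 to 0.047), *PWD* (-0.53 to 0.057), *SEX4* (-0.43 to 0.49), *BAM3* (-2.30 to 0.12), *ISA3* (-0.24 to 0.47), *DPE1* (-0.72 to 0.16) and *DPE2* (-0.64 to 0.24). In MUTEv5#5 against MUTEv5#2 they were *GWD1* (-1.14 to 0.31), *PWD* (-0.77 to 0.12), *BAM3* (-0.98 to 1.44), *DPE1* (-1.01 to 0.098), *DPE2* (-1.03 to 0.16) and *MEX1* (-0.042 to 0.11).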
